A study of Mus musculus with 16 samples.

Results

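The integrated stress response and the hormones it induces were followed here through 10 genes, listed by symbol. They are Atf3, Atf4, Atf5, Ddit3, Trib3, Chac1, Asns, Sesn2, Gdf15 and Fgf21. The list was chosen with earlier results of these data known, so comparisons of its members with all genes are descriptions. All 10 were found among the 15350 genes with a value in every library. Messenger RNA of interscapular brown fat from C57BL/6J mice was sequenced in 16 libraries. Ucp1-knockout mice (KO) and wild-type mice (WT) each received isoproterenol, a beta-adrenergic agonist delivered by minipump at 60 mg per kg per day, or saline, and tissue was taken after 3 days. The groups were KO isoproterenol, KO saline, WT isoproterenol and WT saline, with 4 libraries each. The labels name neither age nor sex, nor the part of Ucp1 that was deleted, nor whether each library is a separate animal. P-values below thus reflect only how far these samples spread, and that spread may be technical.

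The integrated stress response is a shared answer to several kinds of cell stress. Kinases that sense amino acid shortage, unfolded protein, heme loss or viral RNA phosphorylate the translation factor eIF2, which slows translation in general while the mRNA of the transcription factor ATF4 is translated better. ATF4 and its partners then induce genes of amino acid supply and redox balance and the secreted factors GDF15 and FGF21, which brown fat is known to release under mitochondrial stress. Because ATF4 is controlled largely at translation, its mRNA level is not a measure of its activity.

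ATF4 binds composite elements that join a C/EBP half-site and an ATF half-site, with the core TGATGNAA, read on either strand. RefSeq promoter windows of GRCm38.p6 reach from 250 bases before to 50 after the gene start. In these windows the core was found in 5 of the 10 genes, which had 12 windows, against 3.97% of 32851 windows over all genes. Genes and windows are unlike units, and the list holds ATF4 targets such as Asns and Chac1. The comparison is thus a description. In Atf3, Chac1 and Fgf21 the matches had the same letters, TTGCATCA, which is the core on the opposite strand. They began 110, 193 and 139 bases before the start. In Asns the match TGATGAAA began 23 bases before the start, and in Trib3 the match TTACATCA lay 15 bases after it. The cAMP response element TGACGTCA was in none of the members' windows and in 1.79% of all windows. Under isoproterenol, with all 16 libraries, Atf3 and Chac1 were higher in KO than in WT, Asns was lower and Fgf21 was not called. The 250 bases before the start are shown for these 4 genes, which had an upstream match. Each runs 5′ to 3′ on the gene's strand, with the match in capitals. They are Atf3 on the minus strand (chr1:191183334-191183583), Chac1 on the plus strand (chr2:119350992-119351241), Asns on the minus strand (chr6:7693210-7693459) and Fgf21 on the minus strand (chr7:45615491-45615740).
Atf3: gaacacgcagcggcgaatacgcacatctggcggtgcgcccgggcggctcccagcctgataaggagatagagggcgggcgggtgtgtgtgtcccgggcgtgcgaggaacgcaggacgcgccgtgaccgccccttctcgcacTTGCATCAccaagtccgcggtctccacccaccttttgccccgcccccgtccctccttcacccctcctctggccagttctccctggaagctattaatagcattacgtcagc
Chac1: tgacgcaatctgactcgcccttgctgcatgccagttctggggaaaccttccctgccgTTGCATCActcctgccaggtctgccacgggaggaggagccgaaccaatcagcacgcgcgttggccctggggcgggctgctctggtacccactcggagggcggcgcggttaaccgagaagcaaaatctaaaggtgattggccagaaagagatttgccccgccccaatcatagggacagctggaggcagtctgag
Asns: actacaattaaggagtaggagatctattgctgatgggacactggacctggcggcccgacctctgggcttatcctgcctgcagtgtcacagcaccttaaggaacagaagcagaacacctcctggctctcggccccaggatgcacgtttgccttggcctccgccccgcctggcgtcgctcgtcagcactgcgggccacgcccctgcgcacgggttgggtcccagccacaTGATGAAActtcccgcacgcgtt
Fgf21: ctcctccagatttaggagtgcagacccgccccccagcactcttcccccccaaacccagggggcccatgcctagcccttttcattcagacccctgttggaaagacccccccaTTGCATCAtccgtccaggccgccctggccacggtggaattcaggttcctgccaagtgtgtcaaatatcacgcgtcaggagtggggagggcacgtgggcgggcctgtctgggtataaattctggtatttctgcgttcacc
A match describes the letters of these windows and is not evidence that a factor bound there.

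Depth ranged from 9004515 to 20986735 recovered reads per library. Levels are given in counts per 1e6 reads (CPM), in the order of replicates 1 to 4, and 1 read was worth 0.0476 to 0.115 CPM. Ucp1, the targeted gene, ran from 19.0 to 2129 CPM in KO isoproterenol and from 410 to 1156 in KO saline, against 8905 to 18458 with isoproterenol and 2298 to 3449 with saline in WT. KO isoproterenol libraries were less alike than those of the other groups, with correlations down to 0.852 within the group against 0.949 or more within the others. In KO isoproterenol replicate 1 the markers of brown adipocytes (8 genes, such as Cidea) summed to 141 CPM. Those of the other 3 libraries of the group summed to 3748, 3991 and 11932, against 7204 to 9253 in KO saline. The 9 pan-adipocyte markers of replicate 1 summed to 6322 CPM, and those of the others to 17386, 29304 and 50682, against 27851 to 29738 in KO saline. Its 12 macrophage markers summed to 8325 CPM, and those of the others to 2302, 5169 and 1135, against 384 to 682 in KO saline. Abundant genes weigh most in these sums, and single adipocyte markers differed. Cox8b ran from 10.5 to 349 CPM in KO isoproterenol and from 997 to 1422 in KO saline, and Adipoq from 201 to 1076 and 1388 to 1866. Pdk4 ran from 33.3 to 5785 CPM in KO isoproterenol and from 1101 to 3826 in KO saline, and Lpl from 2180 to 11286 and 4814 to 5617. None of the markers Adipoq, Plin1, Pparg, Cidea, Adgre1 and Cd68 was at 0 reads in any library. Most results that rest on replicate 1 are given with and without it. In bulk tissue, fewer cells of a type and less RNA per cell cannot be told apart.

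Isoproterenol in KO tissue raised 3 of the 10 genes and lowered 1. The hormone gene Gdf15 rose most, followed by the transcription factor Atf3 and the glutathione-degrading enzyme Chac1, while the transcription factor Atf5 fell. The other 6 were not called. In this comparison 48.6% of all genes were called, 23.8% higher and 24.8% lower (limma, adjusted p under 0.05 over 15350 genes), so 4 calls in 10 is no more than the share among all genes. Gdf15 and Atf3 were higher without overlap, 2 of 10 against 18.1% of all genes. The median log2 difference was 0.66 over the members and -0.0021 over all genes.

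Among the transcription factors, Atf3 encodes a stress-induced bZIP factor that feeds back on its own targets. It had 259, 352, 76.8 and 66.6 CPM in KO isoproterenol and 33.8, 13.1, 21.6 and 4.42 CPM in KO saline. Every KO isoproterenol library was above every KO saline library, although replicates 3 and 4 were much lower than replicates 1 and 2. The log2 difference was 3.36 (SE 0.69, limma adjusted p = 0.00104), and 3.08 without KO isoproterenol replicate 1 (limma adjusted p = 0.00442). Atf4 had 196, 329, 217 and 331 CPM in KO isoproterenol and 347, 157, 281 and 142 CPM in KO saline. These groups overlapped over most of their range, and the log2 difference was 0.27 (SE 0.30, limma adjusted p = 0.468).

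Atf5, a factor linked to the mitochondrial unfolded protein response, had 61.9, 135, 139 and 258 CPM in KO isoproterenol and 281, 199, 209 and 425 CPM in KO saline. Replicates 1 to 3 after isoproterenol were below the whole saline group, and replicate 4 was inside its range. The log2 difference was -1.01 (SE 0.34, limma adjusted p = 0.0222). The call was lost without KO isoproterenol replicate 1 (-0.65, limma adjusted p = 0.0636) or KO saline replicate 4 (-0.79, limma adjusted p = 0.0793), and when the 8 KO libraries were fitted alone (limma adjusted p = 0.0957). Ddit3, which encodes the factor CHOP, ran from 28.2 to 37.2 CPM in KO isoproterenol and from 20.5 to 51.3 CPM in KO saline (log2 difference -0.07, SE 0.22, limma adjusted p = 0.813). Exons of Atf5 overlap Nup62 and Il4i1 on the opposite strand, and those of Ddit3 overlap Mars and Gm4189 there and another model of the same name. Whether reads were counted by strand is not stated, so the levels of both genes are uncertain.

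Chac1 degrades glutathione and is among the genes induced most by ATF4 in culture. It had 2.45, 14.7, 8.96 and 19.8 CPM in KO isoproterenol and 0.956, 1.71, 1.56 and 3.73 CPM in KO saline. Replicates 2 to 4 were above the saline group, and replicate 1 was inside it. This gave a log2 difference of 2.35 (SE 0.67, limma adjusted p = 0.00916). Asns makes asparagine and is a classical ATF4 target. It had 31.1, 89.6, 65.4 and 160 CPM in KO isoproterenol and 118, 108, 119 and 150 CPM in KO saline. The libraries went both ways, with replicates 1 to 3 below the saline group and replicate 4 above it. Their log2 difference was -0.74 (SE 0.33, limma adjusted p = 0.0771), -0.32 without replicate 1 (limma adjusted p = 0.254) and -1.11 without replicate 4, where it was called (limma adjusted p = 0.00198).

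Trib3, a pseudokinase that restrains ATF4, had 6.02, 34.3, 15.9 and 63.8 CPM in KO isoproterenol and 12.6, 11.6, 9.61 and 20.0 CPM in KO saline. Replicates 2 and 4 were above the saline group, replicate 3 was inside it and replicate 1 was below it. The log2 difference was 0.72 with all libraries (SE 0.51, limma adjusted p = 0.260), 1.33 without replicate 1 (SE 0.37, limma adjusted p = 0.00877) and 0.20 without replicate 4 (SE 0.44, limma adjusted p = 0.726). Sesn2, which damps mTORC1 signalling when leucine is short, had 27.8, 95.9, 64.5 and 130 CPM in KO isoproterenol and 70.2, 32.4, 62.4 and 29.2 CPM in KO saline. Replicates 2 and 4 were above the saline group and replicate 1 was below it. The log2 difference was 0.60 with all libraries (SE 0.41, limma adjusted p = 0.237), 1.04 without replicate 1 (SE 0.33, limma adjusted p = 0.0183) and 0.30 without replicate 4 (SE 0.40, limma adjusted p = 0.551).

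**Figure D1:**
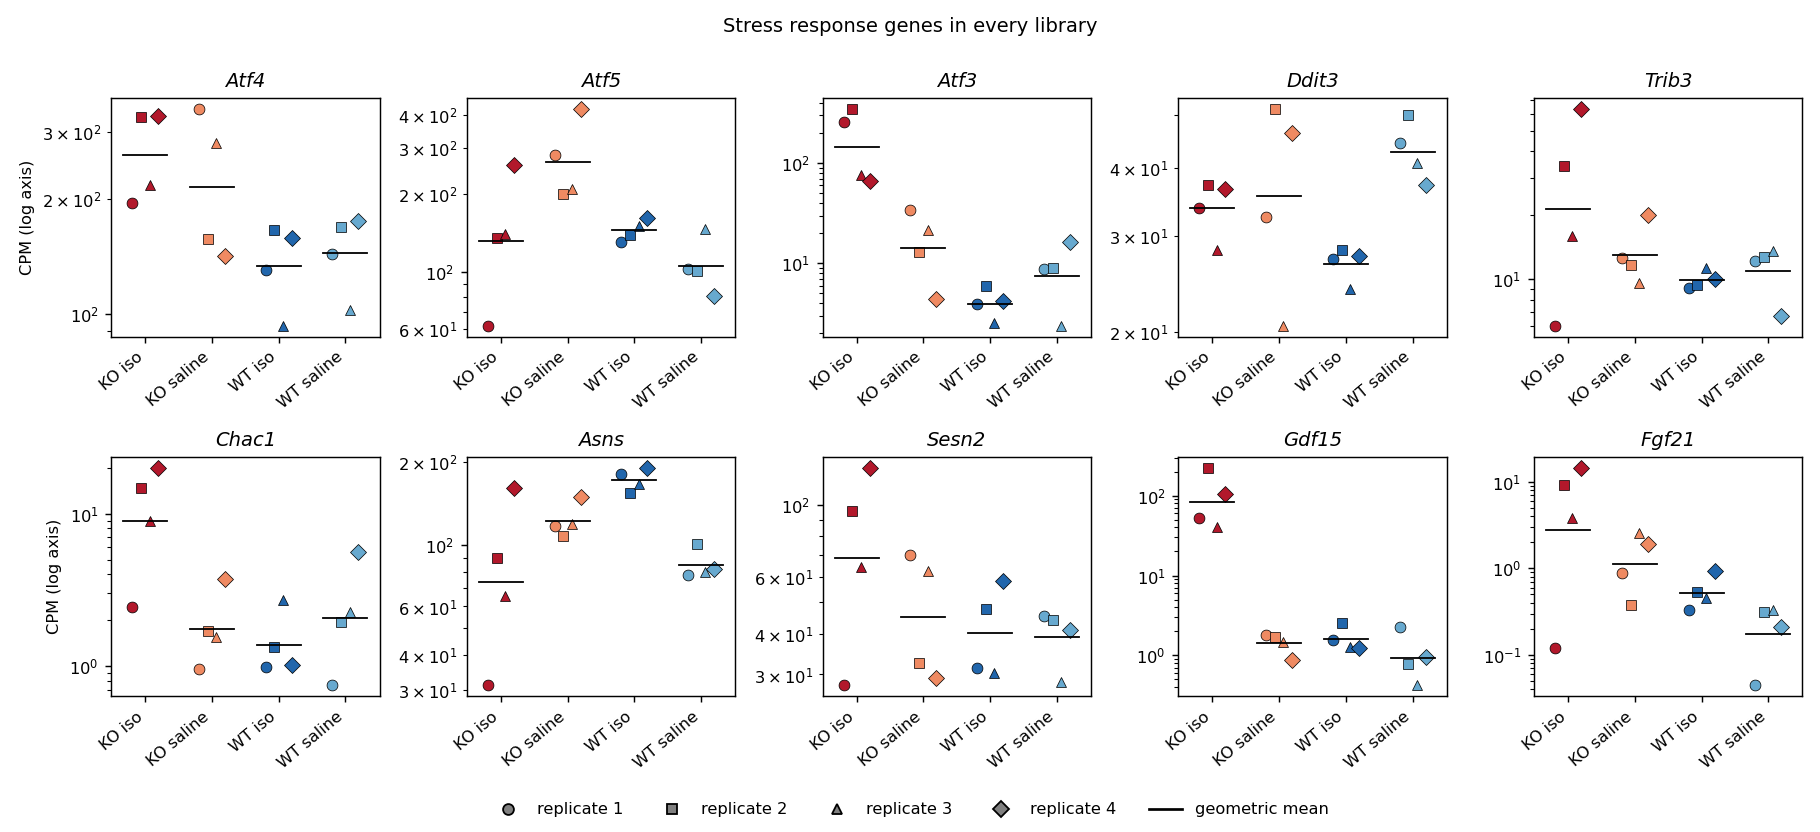
CPM of each of the 10 genes by library (log axis), with groups KO isoproterenol, KO saline, WT isoproterenol and WT saline from left to right. Gdf15 lay at 40.3 CPM or more in the 4 KO isoproterenol libraries and at 2.57 or less elsewhere, while Asns lay between 31.1 and 160 CPM in KO isoproterenol and between 154 and 189 in WT isoproterenol.

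The hormone genes Gdf15 and Fgf21 had unlike patterns over the KO isoproterenol libraries. Gdf15, whose product acts on the hindbrain receptor GFRAL to lower appetite, had 52.7, 222, 40.3 and 104 CPM in KO isoproterenol and 1.81, 1.71, 1.49 and 0.862 CPM in KO saline. All 4 libraries were far above the saline group. Summed over the group, 7547 reads stood against 72. This was a log2 difference of 5.89 (SE 0.53, limma adjusted p = 1.37e-06), or 59.4-fold. Fgf21, which in liver and fat answers fasting and cold, had 0.119, 9.36, 3.84 and 14.5 CPM in KO isoproterenol and 0.885, 0.375, 2.58 and 1.90 CPM in KO saline. Replicates 2 to 4 were above the saline group, and replicate 1, with 2 reads, was below it. Its log2 difference was 1.31 (SE 1.18, limma adjusted p = 0.378) with all libraries, 2.83 (SE 0.76, limma adjusted p = 0.00671) without replicate 1 and 0.52 (SE 1.19, limma adjusted p = 0.736) without replicate 4.

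The spread inside the KO isoproterenol group had a common order. Replicate 1 was the lowest of the group for Atf4, Atf5, Trib3, Chac1, Asns, Sesn2 and Fgf21, and replicate 4 was the highest for the same 7 genes. Atf3, Gdf15 and Ddit3 did not follow this order, since their highest library was replicate 2. Replicate 4 also had the highest sum of pan-adipocyte and brown adipocyte markers and the lowest sum of macrophage and neutrophil markers in the group, and replicate 1 the reverse. In KO after isoproterenol 12 of 12 macrophage and 6 of 7 neutrophil markers were higher (median log2 difference 2.22 and 4.77), against 23.8% of all genes. Of the adipocyte lists, 5 of 9 pan-adipocyte and 4 of 8 brown adipocyte markers were lower (median -1.48 and -1.17), against 24.8% of all genes. Neutrophil markers summed to 468, 144, 190 and 71.7 CPM in KO isoproterenol and to 7.29 to 11.7 in KO saline. The part of cell content in the order of the members was not tested. Without replicate 1, 6 of the 10 were called in KO tissue, all higher, against 45.3% of all genes. These were Atf3, Trib3, Chac1, Sesn2, Gdf15 and Fgf21. Without replicate 4, 5 of the 10 were called against 54.2% of all genes, Atf3, Chac1 and Gdf15 higher and Atf5 and Asns lower.

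**Figure D2:**
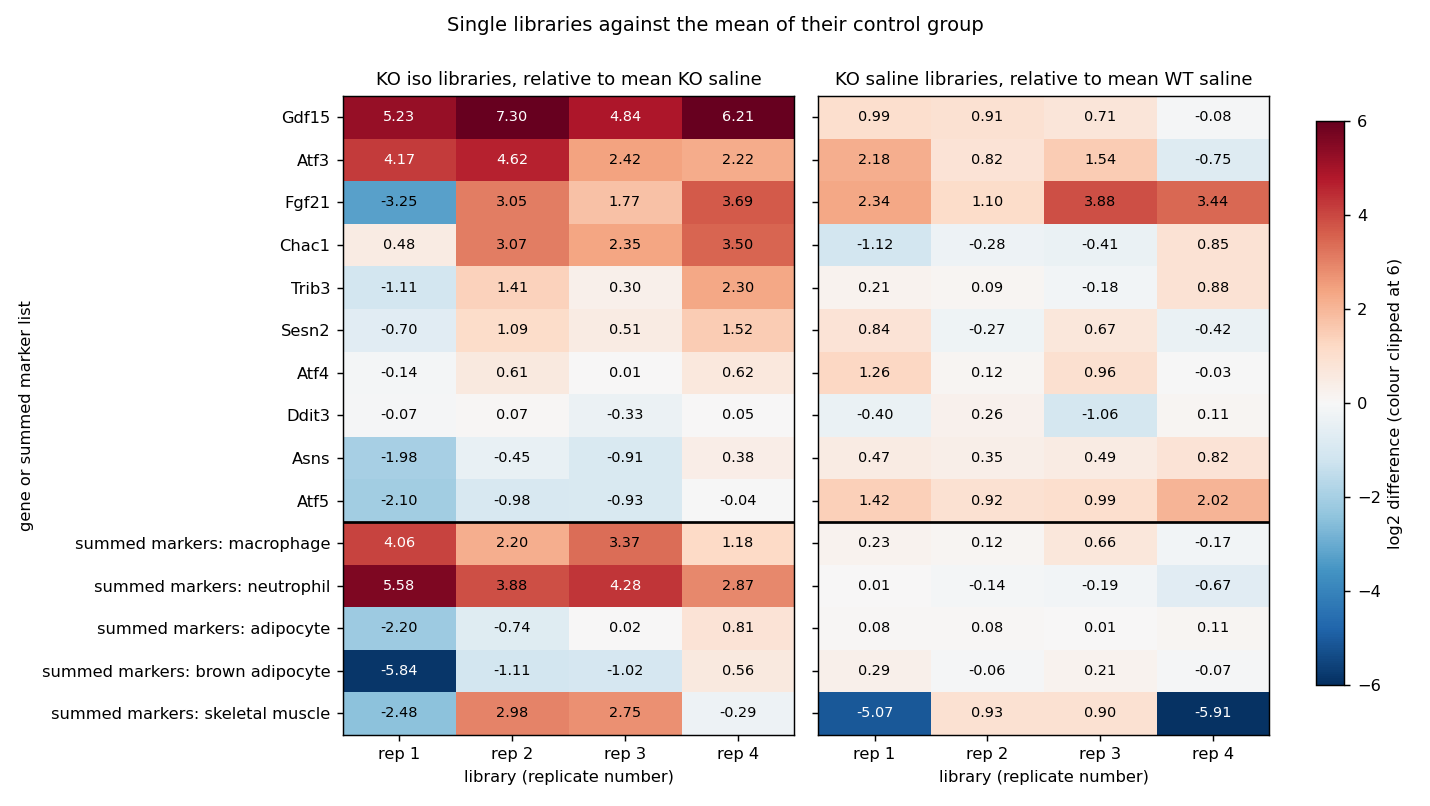
Log2 difference of each single KO library from a group mean, for the 10 genes and the summed cell type markers (rows) and libraries (columns), with colour limited at 6. KO isoproterenol libraries are set against the mean of KO saline and KO saline libraries against the mean of WT saline, and replicate 1 of KO isoproterenol is the low one for 7 genes.

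Isoproterenol in WT tissue gave calls for 2 of these genes. Asns rose and Ddit3 fell, and the stress hormones and Atf3 were not called. These 2 of 10 calls compare with 16.6% of all genes, 7.60% higher and 8.98% lower. The median log2 difference was -0.04 over the members and -0.02 over all genes.

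Asns had 181, 154, 166 and 189 CPM in WT isoproterenol and 77.6, 101, 80.2 and 81.7 CPM in WT saline. The groups did not overlap and each was tight, with a log2 difference of 1.02 (SE 0.33, limma adjusted p = 0.0459). Ddit3 had 27.1, 28.2, 24.0 and 27.5 CPM in WT isoproterenol and 44.3, 49.98, 40.8 and 37.2 CPM in WT saline. Here too the groups did not overlap, and the log2 difference was -0.68 (SE 0.22, limma adjusted p = 0.0444). Both calls sat close to the threshold. Asns was called in 9 of 25 alternatives and Ddit3 in 13 of 25. With the 8 WT libraries fitted alone, the SE of Asns was 0.11 and its limma adjusted p 9.77e-05. Leaving out any 1 of the 8 WT libraries ended both calls, with limma adjusted p of 0.0690 to 0.107 for Asns and 0.0592 to 0.123 for Ddit3. The Asns call was also lost without KO isoproterenol replicate 2 or 3 or any 1 of the KO saline libraries (limma adjusted p = 0.0510 to 0.0592), and the Ddit3 call without KO isoproterenol replicate 2 or KO saline replicate 1 (limma adjusted p = 0.0501 and 0.0543).

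Gdf15 had 1.55, 2.57, 1.28 and 1.23 CPM in WT isoproterenol and 2.25, 0.767, 0.419 and 0.955 CPM in WT saline, overlapping groups (log2 difference 0.79, SE 0.53, limma adjusted p = 0.342). Fgf21 had 0.329, 0.530, 0.448 and 0.945 CPM in WT isoproterenol and 0.0441, 0.316, 0.326 and 0.208 CPM in WT saline, which came to 28 reads over the group after isoproterenol and 8 after saline. The groups did not overlap, and the difference was not called (log2 difference 1.57, SE 1.18, limma adjusted p = 0.403), nor with the 8 WT libraries fitted alone (SE 0.69, limma adjusted p = 0.105). Atf3 had 3.90, 5.99, 2.52 and 4.17 CPM in WT isoproterenol and 8.77, 8.98, 2.37 and 16.4 CPM in WT saline (log2 difference -0.91, SE 0.69, limma adjusted p = 0.405). Atf5 had 131, 139, 150 and 160 CPM in WT isoproterenol and 103, 101, 146 and 80.5 CPM in WT saline, where WT saline replicate 3 was inside the isoproterenol range (log2 difference 0.46, SE 0.34, limma adjusted p = 0.394). Of the 10 genes, Asns and Fgf21 were higher without overlap, against 16.3% of all genes, and Ddit3 was lower without overlap, against 16.6%.

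Same-numbered WT libraries of both treatments deviated together from their group means, as did some with different numbers. With the 8 WT libraries fitted alone and the number as a replicate block, 4 of the 10 genes were called, against 34.5% of all genes. Asns (limma adjusted p = 2.52e-04) and Atf5 (limma adjusted p = 0.0328) were higher, and Ddit3 (limma adjusted p = 0.00103) and Atf3 (limma adjusted p = 0.0485) lower. Without the block that fit also called Atf5 (limma adjusted p = 0.0466) but not Atf3 (limma adjusted p = 0.235). Skeletal muscle markers (10 genes) followed the same numbers. They summed to 175, 6.19, 978 and 2571 CPM in WT isoproterenol and to 279, 6.50, 1245 and 7907 CPM in WT saline. In KO they did so too, at 13.4, 591, 504 and 61.4 CPM with isoproterenol and 10.9, 698, 681 and 6.09 CPM with saline. The part of muscle content in the calls was not tested.

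KO and WT tissue under saline gave no call among the 10 genes, with the highest ratios of KO over WT in Fgf21 and Atf5. None of the 10 passed limma's test, against 0.0977% of all genes, and 2 of 10, Atf5 and Fgf21, had an unadjusted p under 0.05, against 6.91% of all genes. Atf5, Asns and Fgf21 were higher in KO without overlap, 3 of 10 against 3.75% of all genes. The median log2 difference was 0.56 over the members and -0.0035 over all genes, with 8 of 10 above 0.

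Atf5 was higher in KO saline, at 281, 199, 209 and 425 CPM, than in WT saline, at 103, 101, 146 and 80.5 CPM. The lowest KO library was above the highest WT library. This gave a log2 difference of 1.34 (SE 0.34, limma adjusted p = 0.295, unadjusted p = 0.00127), and without KO isoproterenol replicate 1, which is in neither group, the SE was 0.25 and the limma adjusted p 0.0379. In that fit 1 of the 10 genes was called, against 0.241% of all genes. No other alternative called a member under saline. With the saline libraries fitted alone, which also leaves out that library, 0 of the 10 were called, against 50 of 15350 genes. Asns had 118, 108, 119 and 150 CPM in KO saline against 77.6, 101, 80.2 and 81.7 in WT saline (log2 difference 0.53, SE 0.33, limma adjusted p = 0.822). Fgf21 had 67 reads over the 4 KO saline libraries and 8 over the 4 WT saline libraries, of which 1 had 0. Its fitted log2 difference was 2.69 (SE 1.18, limma adjusted p = 0.675), and 1.95 with a prior count of 2 reads in place of 0.5. Atf4 was split within KO saline, where replicates 1 and 3 were at 347 and 281 CPM and replicates 2 and 4 at 157 and 142, against 144, 169, 102 and 175 CPM in WT saline (log2 difference 0.58, SE 0.30, limma adjusted p = 0.769). Gdf15 was not higher beyond its spread, at 0.862 to 1.81 CPM in KO saline and 0.419 to 2.25 in WT saline (log2 difference 0.63, SE 0.53, limma adjusted p = 0.905).

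KO against WT under isoproterenol gave the largest number of calls among these 4 pairs of groups, which share samples with each other. In KO tissue Atf3, Atf4, Chac1 and Gdf15 were higher and Asns was lower, 5 of 10 against 44.6% of all genes, 21.6% higher and 23.1% lower. Atf3, Atf4 and Gdf15 did not overlap, 3 of 10 against 17.2% of all genes. The median log2 difference was 1.04 over the members and 0.02 over all genes.

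Gdf15 averaged 105 ± 82.9 CPM in KO isoproterenol and 1.66 ± 0.625 in WT isoproterenol (SD, n = 4 each; log2 difference 5.73, SE 0.53, limma adjusted p = 4.54e-06). Atf3 averaged 189 ± 140 CPM in KO isoproterenol and 4.14 ± 1.43 CPM in WT isoproterenol (log2 difference 5.21, SE 0.69, limma adjusted p = 5.75e-05). Atf4 had 196, 329, 217 and 331 CPM in KO isoproterenol against 130, 166, 92.9 and 158 CPM in WT isoproterenol. The lowest KO library was above the highest WT library, with a log2 difference of 0.97 (SE 0.30, limma adjusted p = 0.0157), and 0.79 without WT isoproterenol replicate 3, where the call was lost (limma adjusted p = 0.0575). Chac1 averaged 11.5 ± 7.49 CPM in KO and 1.52 ± 0.821 in WT (log2 difference 2.69, SE 0.67, limma adjusted p = 0.00445).

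Asns averaged 86.5 ± 54.5 CPM in KO isoproterenol and 173 ± 15.8 CPM in WT isoproterenol. The log2 difference was -1.23 (SE 0.33, limma adjusted p = 0.00746). KO replicate 4, at 160 CPM, was inside the WT range, and the other 3 KO libraries were below it. The call was lost when the 8 isoproterenol libraries were fitted alone (limma adjusted p = 0.0582). Without KO isoproterenol replicate 1, 8 of 10 genes were called against 42.4% of all genes, with Trib3 (1.72, limma adjusted p = 0.00189), Sesn2 (1.20, limma adjusted p = 0.00882) and Fgf21 (3.95, limma adjusted p = 8.14e-04) added. Without KO isoproterenol replicate 4, 5 of 10 were called, 4 higher and 1 lower, against 7709 of 15350 genes.

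**Figure D3:**
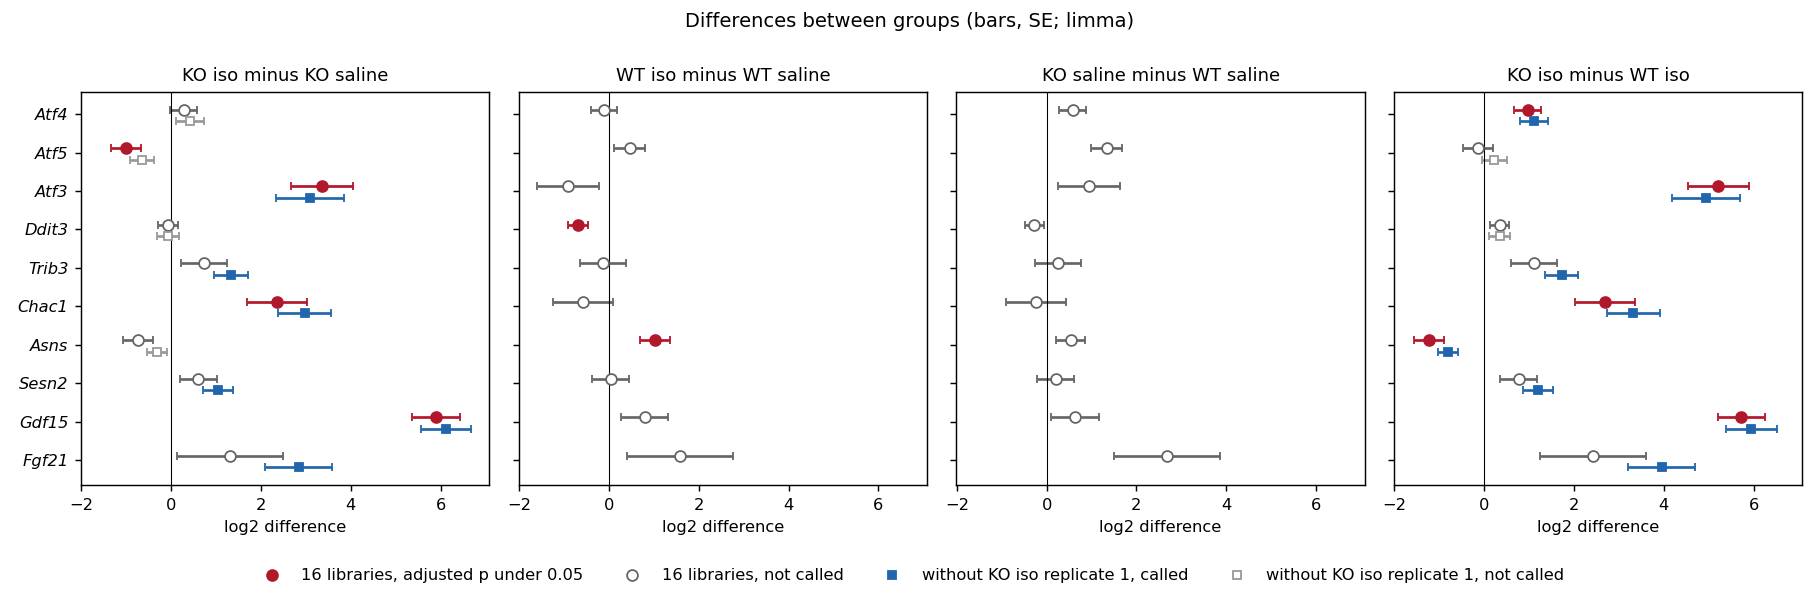
Log2 differences of the 10 genes in each comparison with their standard errors, for all 16 libraries (red circles) and, where KO isoproterenol takes part, without its replicate 1 (blue squares); open grey symbols were not called. Fgf21 in the KO response is at 2.83 without replicate 1 and at 1.31 with it, while Gdf15 is the highest in the KO response at 5.89.

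The response to isoproterenol differed between the genotypes for 5 of the 10 genes, tested as the KO response minus the WT response, against 24.7% of all genes, 10.9% higher and 13.8% lower. The response was higher in KO than in WT for Gdf15 (log2 5.10, SE 0.75, limma adjusted p = 9.05e-04), Atf3 (4.27, SE 0.97, limma adjusted p = 0.00742) and Chac1 (2.93, SE 0.94, limma adjusted p = 0.0348). It was lower in KO for Asns (-1.76, SE 0.47, limma adjusted p = 0.0155) and Atf5 (-1.47, SE 0.48, limma adjusted p = 0.0366). Gdf15, Atf3 and Asns stayed called in 23 of 23 alternatives, and Atf5 and Chac1 in 11 of 23 each. Atf5 was lost without KO isoproterenol replicate 2 or 3, KO saline replicate 1 or 4, any WT isoproterenol library or WT saline replicate 1, 2 or 4 (limma adjusted p = 0.0503 to 0.0757). Chac1 was lost without KO isoproterenol replicate 2 or 3, KO saline replicate 1, 2 or 3, WT isoproterenol replicate 1, 2 or 4, or WT saline replicate 2, 3 or 4 (limma adjusted p = 0.0514 to 0.0708). Fgf21 gave no difference of responses beyond its error (-0.26, SE 1.67, limma adjusted p = 0.924), and that value was 1.26 without KO isoproterenol replicate 1. Without that library 6 of 10 were called, against 24.6% of all genes, and Trib3 (1.47, limma adjusted p = 0.0458) was the addition. Without KO isoproterenol replicate 4, 5 of 10 were called, against 5666 of 15350 genes.

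Genes of the stress sensors and the eIF2 machinery moved in both directions. Of 15 genes for eIF2 kinases, eIF2B and phosphatase subunits, 4 were higher and 3 lower in KO after isoproterenol (median log2 difference 0.05), where 23.8% of all genes were higher and 24.8% lower. Without KO isoproterenol replicate 1, 4 were higher and 2 lower, against 45.3% of all genes called. The interferon-induced kinase PKR, gene Eif2ak2, rose by 0.74 (SE 0.24, limma adjusted p = 0.0168). Its difference ran from 0.42 to 0.90 with 1 library left out. The call held in 23 of 24 alternatives and was lost in 1 (limma adjusted p = 0.0828). Impact, an inhibitor of the amino acid sensing kinase GCN2, rose by 0.98 (SE 0.14, limma adjusted p = 7.09e-05). Dele1, which relays mitochondrial stress to the kinase HRI, fell by 0.94 on the log2 scale (SE 0.17, limma adjusted p = 4.15e-04). Under isoproterenol the phosphatase subunit Ppp1r15a, which ends the response, was higher in KO than in WT by 1.84 (SE 0.44, limma adjusted p = 0.00351), at 27.0, 157, 36.4 and 77.3 CPM in KO against 16.6, 18.5, 12.1 and 19.4 CPM in WT. In WT after isoproterenol 1 of the 15 was higher and 0 lower, against 7.60% and 8.98% of all genes. With the 8 WT libraries alone and the replicate block, 1 was higher and 2 lower, against 34.5% of all genes called. Between KO and WT under saline limma called 0, against 0.0977% of all genes, and 2 had an unadjusted p under 0.05, against 6.91%.

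The amino acid genes that ATF4 targets moved in more than 1 direction. Of 18, 9 were higher and 3 lower in KO after isoproterenol (median log2 difference 0.84), against 23.8% and 24.8% of all genes. The cystine transporter Slc7a11 was at 23.5, 99.7, 10.6 and 20.0 CPM in KO isoproterenol and 0.319, 0.291, 0.181 and 0.0574 CPM in KO saline, which was 2707 and 9 reads (log2 difference 7.23, SE 0.89, limma adjusted p = 1.77e-05). The large neutral amino acid transporter Slc7a5 rose by 2.96 and its partner Slc3a2 by 1.61, and Psat1, of serine synthesis, rose by 1.87 (limma adjusted p = 1.86e-04, 1.65e-04 and 7.33e-05). Against these, Phgdh, the first enzyme of serine synthesis, fell by 2.33, the glutamine transporter Slc1a5 fell by 1.66 and Cth, of cysteine synthesis, fell by 1.06 (limma adjusted p = 2.89e-05, 3.85e-04 and 0.0210). The Cth call was lost without KO isoproterenol replicate 2 or 3 or KO saline replicate 1 or 4 (limma adjusted p = 0.0516 to 0.0743).

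Phgdh and Psat1, which act in the same pathway, went opposite ways in KO tissue. Phgdh had 15.3, 7.44, 18.2 and 16.8 CPM in KO isoproterenol and 78.9, 48.3, 61.4 and 93.9 CPM in KO saline, so the groups did not overlap. Psat1 had 50.8, 56.4, 29.9 and 36.8 CPM in KO isoproterenol and 7.12, 13.3, 12.5 and 14.99 CPM in KO saline, again without overlap but upwards. In WT, isoproterenol lowered Phgdh by a log2 difference of -1.44 and raised Psat1 by 0.95 (limma adjusted p = 0.00494 and 0.0268). The Psat1 call was lost without WT isoproterenol replicate 1, 2 or 4 or WT saline replicate 2, 3 or 4 (limma adjusted p = 0.0524 to 0.0821). In WT after isoproterenol, 5 of the 18 were higher and 1 lower (median log2 difference -0.03), against 7.60% and 8.98% of all genes.

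Mthfd2, the mitochondrial folate enzyme, was the 1 gene of the 18 called between KO and WT under saline, against 0.0977% of all genes. It had 10.2, 11.2, 9.98 and 25.1 CPM in KO saline and 4.36, 3.75, 3.12 and 2.03 CPM in WT saline. Every KO library was above every WT library, with a log2 difference of 2.03 (SE 0.34, limma adjusted p = 0.0328). The call held in 10 of 24 alternatives, and was lost without any 1 library of KO saline, WT isoproterenol or WT saline (limma adjusted p = 0.0522 to 0.152) and with voom weights (limma adjusted p = 0.251). Isoproterenol raised Mthfd2 in both genotypes, by 1.04 in KO and 1.498 in WT (limma adjusted p = 0.0197 and 0.00805).

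**Figure D4:**
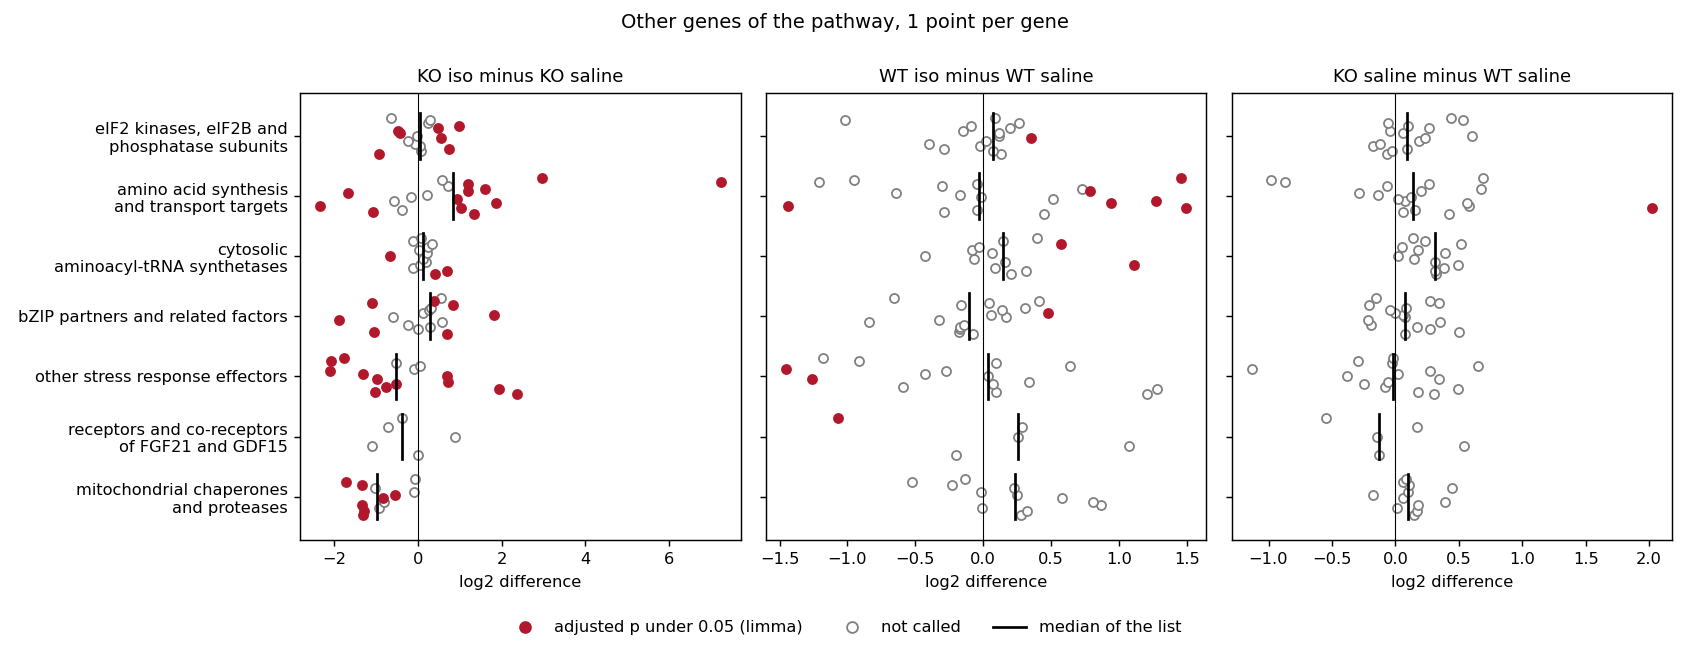
Log2 differences of single genes (points) in the pathway lists, for the KO response, the WT response and KO against WT under saline, on axes of unequal scale; red points were called and vertical lines are list medians. The amino acid list spreads from -2.33 for Phgdh to 7.23 for Slc7a11 in the KO response. Under saline 1 of its genes, Mthfd2 at 2.03, was called, against 0.0977% of all genes.

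Of 15 other effectors of stress, 4 were higher and 8 lower in KO tissue (median log2 difference -0.52), against 23.8% and 24.8% of all genes. The cell cycle inhibitor Cdkn1a rose by 2.38 and Ddit4, an inhibitor of mTORC1, by 1.93 (limma adjusted p = 5.16e-04 and 0.00186). The angiogenic factor Vegfa fell by 2.08 and the sestrin Sesn3 by 1.31 on the log2 scale (limma adjusted p = 0.00146 and 1.85e-04). Without KO isoproterenol replicate 1 the counts were 3 higher and 6 lower, against 45.3% of all genes called. In WT 0 were higher and 2 lower, Stc2 and Nupr1, against 7.60% and 8.98% of all genes. Stc2 was lost without WT isoproterenol replicate 2 (limma adjusted p = 0.0543). With the 8 WT libraries alone and the replicate block, 2 were higher and 6 lower, against 34.5% of all genes called. Among 16 bZIP partners, 4 were higher and 3 lower in KO (median log2 difference 0.29), against 23.8% and 24.8% of all genes. Cebpd was at 1.81 and Cebpa, a factor of adipocyte differentiation, at -1.88 (limma adjusted p = 6.29e-05 and 1.98e-06). Of 13 cytosolic tRNA synthetases, 2 were higher and 1 lower in KO (median log2 difference 0.13), against the same 23.8% and 24.8%. In WT 2 were higher, against 7.60% of all genes, Gars at 1.11 and Wars at 0.57 (limma adjusted p = 0.0104 and 0.0362). The Wars call was lost without any 1 of the 8 WT libraries (limma adjusted p = 0.0521 to 0.104). The block fit of the WT libraries called 4 higher and 1 lower, against 34.5% of all genes called. Between KO and WT under saline 0 of the 13 were called (median log2 difference 0.31), against 0.0977% of all genes. Of these 13, 6 had an unadjusted p under 0.05, against 6.91% of all genes. Under isoproterenol 5 of the 13 were higher in KO than in WT and 0 lower, against 21.6% and 23.1% of all genes.

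Of 12 mitochondrial chaperones and proteases, which the mitochondrial unfolded protein response induces in worms and mammalian cells, 7 were lower and 0 higher in KO after isoproterenol (median log2 difference -0.97), against 24.8% and 23.8% of all genes. Trap1 fell by 1.72 and the protease subunit Spg7 by 1.34 (limma adjusted p = 1.92e-04 and 3.34e-04). Without replicate 1 the count was 5 lower, against 45.3% of all genes called. In WT limma called 0, against 16.6% of all genes, with 0 at an unadjusted p under 0.05. With the 8 WT libraries alone and the replicate block, 4 were higher and 1 lower, against 34.5% of all genes called. Under saline 0 were called, against 0.0977% of all genes, and 0 had an unadjusted p under 0.05, against 6.91%.

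Few receptor genes of the hormones were called. Of 7 genes for receptors and co-receptors of FGF21 and GDF15, 5 had values, and Gfral and Fgfr4 did not. Of these 5, limma called 0 in KO after isoproterenol, against 48.6% of all genes, with 2 at an unadjusted p under 0.05. Without KO isoproterenol replicate 1, 1 was higher and 1 lower, against 45.3% of all genes called. Ret, the co-receptor of GFRAL, fell in WT by 1.07 on the log2 scale (SE 0.35, limma adjusted p = 0.0471). That call was lost with any 1 of 14 of the 16 libraries left out, all but KO isoproterenol replicates 1 and 4 (limma adjusted p = 0.0511 to 0.115). With the 8 WT libraries alone and the replicate block, 1 receptor gene was higher and 1 lower, against 34.5% of all genes called. Klb, the co-receptor that FGF21 needs, had 11.8, 31.9, 60.5 and 130 CPM in KO isoproterenol and 106, 57.8, 65.2 and 54.3 CPM in KO saline. It was lowest in replicate 1 and highest in replicate 4 (log2 difference -0.72, SE 0.51, limma adjusted p = 0.261). Fgfr2 was lower in KO than in WT under isoproterenol, by a log2 difference of -1.64 (SE 0.45, limma adjusted p = 0.00806).

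Over the 16 libraries and 14268 genes with a mean of at least 1 CPM, the genes most like Gdf15 by Pearson's r of log2 CPM were Hmox1, the heme-degrading oxygenase (0.976), the epithelial protein gene Sprr1a (0.967) and the oncostatin M receptor Osmr (0.963). Those most like Fgf21 were March3 (0.923), Pak1ip1 (0.883) and AC154492.2 (0.882), and those most like Atf4 were the mitochondrial carrier Slc25a25 (0.918), Btbd10 (0.913) and Nol10 (0.903). These are descriptions over 16 points that share the 4 groups and their libraries. Sprr1a ran from 1.74 to 14.2 CPM in KO isoproterenol and from 0.0345 to 0.122 CPM, near the floor, in the other groups. It reached a mean of 1 CPM only through KO isoproterenol, so its r reflects little beyond the split of that group from the rest. Hmox1 ran from 411 to 1148 CPM in KO isoproterenol and from 12.7 to 22.7 in KO saline, against 23.3 to 46.7 CPM with isoproterenol and 13.2 to 23.2 with saline in WT.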

How the data were processed

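The authors deposited log2 CPM for 15350 genes in each of 16 libraries. Per the submitters' processing notes STAR, limma and the build mm39 were used. Versions, the counter and its strand setting are not stated. Whole reads plus a prior count of 0.5 were recovered from 100% of the values (within 1e-06), and gave the depth. Groups came from the labels and replicate numbers from the titles, which differ from the headers in 3 KO saline libraries. Treatment text on the saline samples describes isoproterenol, and the treatment label was used.

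Same-numbered libraries of WT isoproterenol and WT saline correlated from 0.210 to 0.536 in their deviations from group means (4 of 4 pairs over 0.1). Some differently numbered WT pairs were over 0.1 too, such as isoproterenol 2 with saline 1 (0.371) and isoproterenol 3 with saline 4 (0.345). Others ran down to -0.532. The criterion thus does not show that the numbers mark pairs, and the labels do not say what a number marks. In the other pairs of groups at most 2 of 4 same-numbered pairs were over 0.1.

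A linear model of 4 group means over 16 libraries was fitted to the log2 values of all genes with limma 3.58.1 (R 4.3.3), with a mean-variance trend and robust moderation. Two-sided p-values were adjusted over 15350 genes by the Benjamini-Hochberg method, and genes called under 0.05. The fit was checked on simulated data with the same spread in all groups, so that check does not cover the wider spread of KO isoproterenol. Symbols came from GENCODE M21, matched for 15320 genes. Members and lists were chosen with earlier results of these data known. Named genes were the 10 members, and from each list up to 4 called genes in each direction with the largest change, plus the 3 genes most like Atf4, Gdf15 and Fgf21. Klb and individual values of Ppp1r15a, Phgdh, Psat1 and Slc7a11 were added after their values were seen.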

Additional observations from a re-analysis of the deposited data

Results flagged for a closer look

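The isoproterenol response differed between KO and WT, by the test of the difference itself, for 5 of the 10 genes (limma, adjusted over all genes). The KO response minus the WT response was 5.10 for Gdf15, 4.27 for Atf3 and 2.93 for Chac1 on the log2 scale. It was -1.76 for Asns and -1.47 for Atf5. On the log2 scale 1 library stood apart from the other 3 of its group by Dixon's criterion at the 95% level, the lowest of WT saline for Trib3 (log2 CPM 2.74, gap over range 0.844), and on the CPM scale 0 did. Chance alone passes this criterion in about 1 of 20 groups, and 40 were examined.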

How the results depend on the processing

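Over 50 results for members in 5 comparisons, 1107 of 1200 values kept direction and side of the threshold, 57 lost a call and 16 gained one. The 20 that turned direction had not been called. Calls in the KO response numbered 4 (range 3 to 6 with 1 library left out), in the WT response 2 (0 to 2), in KO against WT under saline 0 (0 to 1), in KO against WT under isoproterenol 5 (4 to 8) and in the difference of responses 5 (3 to 6). Scaling by library totals gave 1 in the WT response and 8 in KO against WT under isoproterenol; it moved the median of all genes to 0.27 there, 0.18 in the KO response, -0.13 in the WT response and 0.34 in the difference of responses. The median-of-ratios scaling gave 1 and voom weights 0 in the WT response; both were chosen after seeing the data, as were list counts without KO isoproterenol replicate 1. The cause of these shifts was not tested. Directions turned with library totals for Ddit3 in KO (0.11), Sesn2 in WT (-0.0705), Atf5 in KO against WT under isoproterenol (0.12) and Fgf21 in the difference of responses (0.0358), and for that last one with a prior count of 2 (0.34).

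With 1 library left out, values ran from -0.34 to 0.11 for Ddit3 in KO, -0.28 to 0.0616 for Atf4 and -0.13 to 0.18 for Sesn2 in WT, -0.73 to 0.24 for Chac1 and -0.0069 to 0.41 for Sesn2 under saline, -0.46 to 0.22 for Atf5 in KO against WT under isoproterenol, and -1.05 to 1.26 for Fgf21 in the difference of responses.

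Same-numbered libraries of different groups correlated from -0.431 to 0.536 in their deviations, with 10 of 24 pairs over 0.1. All 4 same-numbered pairs of WT isoproterenol and WT saline were over 0.1, and at most 2 of 4 in any other pair of groups. Differently numbered WT pairs of both treatments reached 0.371. With the replicate block over 16 libraries the counts were 4, 2, 0, 5 and 5, and no member's call changed; with the block in the 8 WT libraries alone the WT response had 4, an alternative also chosen after seeing the data. Mthfd2 under saline was not called (limma adjusted p = 0.0535). The planned count models were not run. A count of 3 reads was 0.143 to 0.345 CPM, which limits levels as low as those of Fgf21 in WT saline.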
